A study of Homo sapiens with 6 samples.

Results

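The genes that write and erase DNA methylation were examined in chromatin immunoprecipitation sequencing (ChIP-seq) peak lists of NCI-H526 cells, a human line of small cell lung cancer. The set was DNMT1, UHRF1, DNMT3A, DNMT3B, TET1 and TET2. Its members are the distinct peak intervals that lay within 20 kb of the hg19 span of one of these genes, 149 of 271093 intervals in the 4 lists. The genes were picked by function, because the study's title links a DNA hypomethylation signature to the response to LSD1 inhibitors. LSD1 (KDM1A) is a demethylase of H3K4me2 and H3K4me1.

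The 4 lists were LSD1 with DMSO (20 members of 45188 peaks), LSD1 with the inhibitor labelled GSK552 (28 of 49597), H3K4me2 with DMSO (51 of 81619) and H3K4me1 with DMSO (50 of 94689). The treatment field names 1 µM GSK2879552 for 24 hours. That text stands with all samples, and the treatment was taken to be that of the GSK552 library alone. All libraries came from the same cell line, grown in RPMI with 10% FBS. The series has 6 samples, of which 2 are inputs and were left out. Only DMSO lists of the histone marks were analysed, so both LSD1 lists are set against marks of cells without inhibitor. Each group had 1 library, so no p-value is given, and any contrast of DMSO with inhibitor compares one library with one other. Peak lists hold no expression values, so the cell type was taken from the labels.

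DNA methylation is laid down at cytosines that precede guanines (CpG). DNMT3A and DNMT3B methylate unmodified sites, DNMT1 copies the pattern to the new strand after replication, and UHRF1 recognises hemimethylated DNA and brings DNMT1 to it. TET1 and TET2 oxidise 5-methylcytosine, the first step of active removal. H3K4me2 marks promoters and enhancers, H3K4me1 is most common at enhancers, and unmethylated H3K4 is the form of histone H3 that the de novo methyltransferases can bind.

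All 6 gene starts lay close to H3K4me2, so the sequence there is shown first. The runs are the 250 bases before a RefSeq start (GRCh38.p14 promoter table), 5′ to 3′ on the coding strand, with each CpG in capitals. For DNMT3A and TET1 a second run is given, because both genes carried their highest-scoring H3K4me2 interval deep inside the gene and the table lists a further group of starts there. The DNMT1 run lies at chr19:10194954-10195203 (minus strand), UHRF1 at chr19:4909251-4909500 (plus), the outer DNMT3A start at chr2:25342591-25342840 (minus), the inner DNMT3A start at chr2:25252316-25252565 (minus), the outer TET1 start at chr10:68560087-68560336 (plus), the inner TET1 start at chr10:68600018-68600267 (plus) and the outer TET2 start at chr4:105145625-105145874 (plus).
DNMT1: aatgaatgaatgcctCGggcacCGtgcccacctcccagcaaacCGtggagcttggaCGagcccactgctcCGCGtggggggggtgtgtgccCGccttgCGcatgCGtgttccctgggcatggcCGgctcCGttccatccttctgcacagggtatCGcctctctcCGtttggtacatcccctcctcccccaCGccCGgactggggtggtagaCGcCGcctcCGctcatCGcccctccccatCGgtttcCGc
UHRF1: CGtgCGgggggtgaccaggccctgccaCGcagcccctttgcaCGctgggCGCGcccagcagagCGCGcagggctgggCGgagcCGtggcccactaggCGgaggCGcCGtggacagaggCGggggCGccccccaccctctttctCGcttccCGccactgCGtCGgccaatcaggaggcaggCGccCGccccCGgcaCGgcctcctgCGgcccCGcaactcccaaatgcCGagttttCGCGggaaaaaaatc
DNMT3A outer start: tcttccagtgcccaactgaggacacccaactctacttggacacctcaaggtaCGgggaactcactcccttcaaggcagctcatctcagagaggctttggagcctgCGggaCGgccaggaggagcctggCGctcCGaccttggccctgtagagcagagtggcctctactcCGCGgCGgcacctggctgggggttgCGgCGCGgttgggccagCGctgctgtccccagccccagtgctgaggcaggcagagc
DNMT3A inner start: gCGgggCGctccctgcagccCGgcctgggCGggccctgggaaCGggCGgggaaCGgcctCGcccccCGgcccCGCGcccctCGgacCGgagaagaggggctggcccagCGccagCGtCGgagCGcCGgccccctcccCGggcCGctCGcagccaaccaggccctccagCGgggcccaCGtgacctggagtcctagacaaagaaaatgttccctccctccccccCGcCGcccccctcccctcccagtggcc
TET1 outer start: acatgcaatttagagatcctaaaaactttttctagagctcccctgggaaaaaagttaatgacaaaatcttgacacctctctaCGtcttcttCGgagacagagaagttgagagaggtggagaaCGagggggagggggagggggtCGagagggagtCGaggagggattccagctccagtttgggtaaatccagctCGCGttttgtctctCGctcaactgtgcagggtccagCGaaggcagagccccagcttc
TET1 inner start: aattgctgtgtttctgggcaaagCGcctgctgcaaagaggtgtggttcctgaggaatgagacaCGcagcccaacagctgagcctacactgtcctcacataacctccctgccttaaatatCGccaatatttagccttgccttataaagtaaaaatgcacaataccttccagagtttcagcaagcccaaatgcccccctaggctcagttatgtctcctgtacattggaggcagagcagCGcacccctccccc
TET2 outer start: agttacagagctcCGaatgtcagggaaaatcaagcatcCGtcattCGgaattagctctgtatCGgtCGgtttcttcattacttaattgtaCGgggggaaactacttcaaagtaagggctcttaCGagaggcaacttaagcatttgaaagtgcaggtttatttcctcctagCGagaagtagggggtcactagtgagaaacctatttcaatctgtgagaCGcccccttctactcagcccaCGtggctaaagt

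The motif counted was CG, which reads the same on both strands. Over 35116 promoters of the table, the 250 bases before the start held a median of 11 CpG, with quartiles of 3 and 23. The UHRF1 run held 28 CpG, a number reached by 15.9% of all promoters. The runs before the UHRF1 starts 0.643 and 0.866 kb further in held 32 (9.52%) and 41 (1.73%). The DNMT1 run held 21 (30.2% of promoters). The outer DNMT3A run held 12, but the run before the DNMT3A start 0.665 kb further in held 33 (8.15%), and the inner run shown held 25 (21.6%). The outer TET1 run held 9 and the inner one 4, both below the median promoter, and the last-listed TET1 start, 40.1 kb in, held 11. TET2 held 10 before its outer start and 34 (6.84%) before a start 1.00 kb further in. For DNMT3B the table holds a single start, with 3 CpG, which lies inside the gene on GRCh38 and not at its outer end, so its sequence is not shown. Positions on GRCh38 and hg19 were not converted into each other, and CpG counts are a property of the reference and not of the methylation state of these cells.

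Peaks below are on hg19. Distances are in kb from the gene start along the direction of transcription, with minus for upstream. The start is known to the nearest kb, so for an interval ending close to it, whether the start is covered is not resolved. The fold enrichment and the −log10 q of a peak are the authors' values. The score percentile is the rank of its −log10 q in its own list, counted from the lowest, as a percentage of the list. Tied values were given their mean rank. A DMSO peak and an inhibitor peak are compared by their place in their lists, because read depth is unknown.

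All 6 genes had an H3K4me2 interval within 2 kb of the start. LSD1 was there at 5 of 6 genes with DMSO and at 6 of 6 with inhibitor, and H3K4me1 at 5 of 6. The exception for both LSD1 with DMSO and H3K4me1 was TET1, whose nearest intervals of these lists began 39.0 and 38.9 kb into the gene. Over genome positions at steps of 1 kb, 7.15% had an H3K4me2 interval within 2 kb, 6.17% an LSD1 peak with DMSO, 6.63% an LSD1 peak with inhibitor and 8.2% an H3K4me1 interval. Those shares are for the genome as a whole, and other gene starts were not placed, so the counts do not set these genes apart from other genes. Within 1 kb, H3K4me1 was found at 3 of 6 starts, and among the 50% of peaks with the highest scores LSD1 was found at 3 of 6 starts with DMSO and 2 of 6 with inhibitor.

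**Figure D1:**
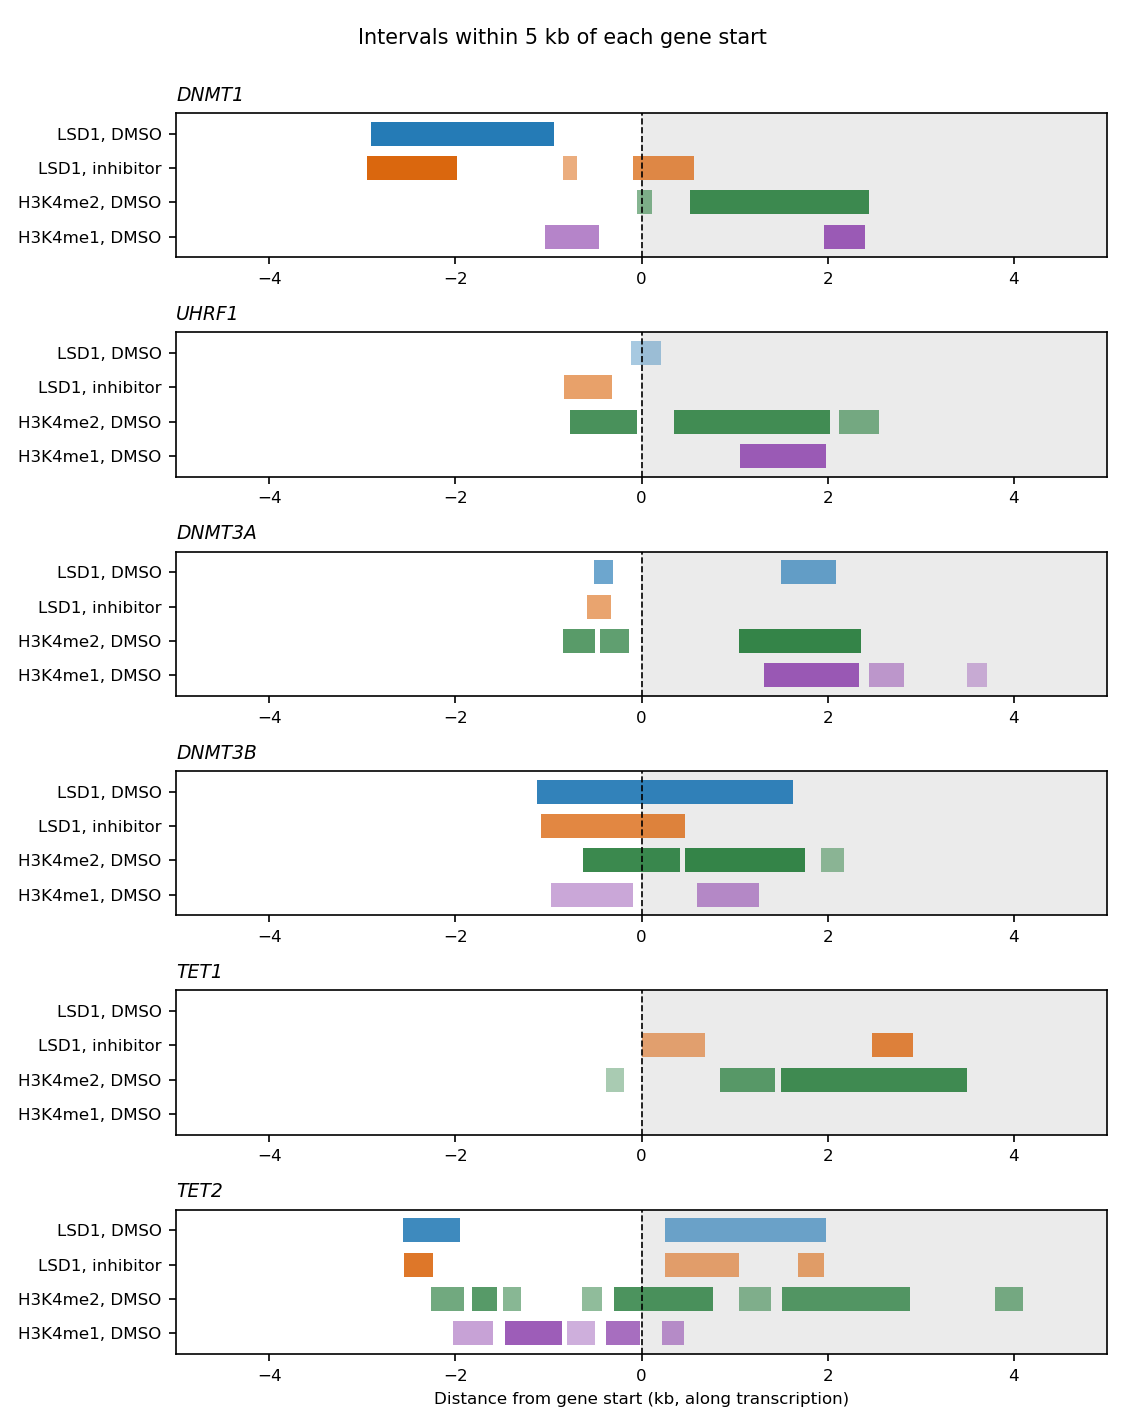
Intervals of the 4 lists within 5 kb of each gene start, drawn to scale against the distance from the start (dashed line, known to the nearest kb), with the gene span in grey and darker bars for a higher score percentile. H3K4me2 lies near all 6 starts, while TET1 has no LSD1 peak with DMSO and no H3K4me1 interval in the window.

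DNMT1 had the strongest LSD1 peak of the set with DMSO, and it lay upstream of the start, off the H3K4me2 of the promoter. This peak, at chr19:10306939-10308911, reached from −0.94 to −2.91 kb and had a fold of 5.80, a −log10 q of 6.14 and rank 2033 of its list. Its closest H3K4me2 interval was 890 bp away, and it overlapped an H3K4me1 interval at −0.46 to −1.03 kb (fold 5.40). With inhibitor a narrower peak of 970 bp covered the distal end of it, from −1.98 to −2.95 kb, with a fold of 5.36 and rank 3596, and no mark overlapped that peak. A second inhibitor peak, 147 bp wide at −0.70 to −0.84 kb with a fold of 3.84, lay on the H3K4me1 and 96 bp from the DMSO peak. Further upstream, at −5.96 to −8.83 kb, weak LSD1 peaks had folds of 3.91 and 3.46 with DMSO and 3.88 with inhibitor, and none of them overlapped between the lists.

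The promoter H3K4me2 of DNMT1 lay inside the gene, at chr19:10303555-10305483, from 0.52 to 2.44 kb, with a fold of 12.4, and H3K4me1 overlapped its inner end with a fold of 7.29. A second, weak interval of 167 bp covered the position taken as the start, known to the nearest kb, with a fold of 5.12. An LSD1 peak of the inhibitor list also reached this position, at chr19:10305434-10306096 with a fold of 4.33 and rank 21882. The nearest DMSO peak was 843 bp away from it. Another site, 9.21 to 11.2 kb into the gene, carried H3K4me1 in 3 intervals with folds of 4.0 to 5.56, a narrow H3K4me2 interval (fold 4.83) and LSD1 in both lists, with folds of 3.63 with DMSO and 3.67 with inhibitor. No interval of any list lay between 11.2 kb and the end of the DNMT1 span at 62 kb. The downstream flank held an H3K4me2 interval with a fold of 13.6, an H3K4me1 interval on it (fold 5.01) and an inhibitor LSD1 peak 94 bp away (fold 4.46), and RefSeq on GRCh38 places EIF3G, P2RY11 and PPAN-P2RY11 within 20 kb of DNMT1.

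UHRF1, the partner of DNMT1, had strong H3K4me2 around its start and little LSD1. RefSeq on GRCh38 lists UHRF1 starts 0.643 and 0.866 kb past the outer one. On which side of a given start these intervals lie is therefore not resolved. The H3K4me2 intervals lay at chr19:4909237-4909947 (−0.05 to −0.76 kb, fold 11.6) and chr19:4910348-4912026 (0.35 to 2.03 kb, fold 13.1), with a weaker one at 2.12 kb (fold 6.04). H3K4me1 covered 1.06 to 1.98 kb with a fold of 7.51. The LSD1 peak with DMSO crossed the position taken as the start, mostly in the gap between the H3K4me2 intervals. It had a fold of 3.25 and a −log10 q of 1.18, which placed it at percentile 6.34. The LSD1 peak with inhibitor lay 212 bp away, at −0.32 to −0.83 kb on the upstream H3K4me2 interval, with a fold of 3.93 at percentile 36.8. The peaks of the 2 lists did not overlap there, so the start counts as occupied in each list and as shared in neither.

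The UHRF1 span beyond 2.55 kb held no interval of any list. The strongest H3K4me2 interval of its window, at chr19:4969547-4971461 with a fold of 19.1, lay in the downstream flank, with a shared LSD1 peak beside it (fold 3.70 with DMSO, 816 bp away, and 3.75 with inhibitor, 438 bp away). The other intervals of that flank were weaker, with H3K4me2 folds of 3.34 to 4.39 and H3K4me1 folds of 5.01 and 5.40. RefSeq on GRCh38 lists ARRDC5 and KDM4B, a demethylase of H3K9, within 20 kb of UHRF1, so flank intervals are given here by position and not assigned to UHRF1.

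DNMT3A carried the strongest H3K4me2 interval of the 6 genes, and it was at an inner site and not at the outer start. At chr2:25473103-25475146, 89.9 to 91.9 kb into the gene, this interval had a fold of 21.1 and rank 2300 of 81619. H3K4me1 covered nearly the same stretch, 1780 bp, with a fold of 9.21. In the RefSeq promoter table on GRCh38, the inner DNMT3A starts lie 90.3 to 90.5 kb downstream of the outer one. LSD1 overlapped the inner site in both lists but weakly, with a fold of 3.38 at percentile 28.8 with DMSO and 3.57 at percentile 25 with inhibitor.

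About 83 to 87 kb into DNMT3A lay the widest H3K4me1 interval of the set, chr2:25478217-25481648, 3432 bp wide with a fold of 11.2 and rank 4519. It overlapped 3 H3K4me2 intervals with folds of 4.63 to 8.70 and no LSD1 peak of either list. A second H3K4me1 interval without LSD1, at 31.1 to 32.1 kb, had a fold of 9.12, and an LSD1 peak found with inhibitor only lay beside it at 32.3 to 32.7 kb (fold 4.24, percentile 71.4). At the outer start, H3K4me2 had a fold of 15.0 at 1.04 to 2.35 kb and folds of 5.25 and 6.27 in 2 short intervals at −0.14 to −0.84 kb, and H3K4me1 had a fold of 7.30 at 1.32 to 2.34 kb. LSD1 there was shared at −0.31 kb (fold 3.36 with DMSO, 3.49 with inhibitor), and the DMSO peak at 1.5 to 2.08 kb (fold 3.71), on both marks, had no counterpart with inhibitor within 1832 bp. RefSeq on GRCh38 lists DNMT3A starts 0.107 and 0.665 kb past the outer one. On which side of a given start the intervals close to it lie is therefore not resolved. A shared LSD1 site at 15.5 kb carried neither mark (fold 3.52 with DMSO, 3.30 with inhibitor). None of the 4 DMSO LSD1 peaks at DNMT3A stood above percentile 49.1. The strongest LSD1 peak of the window was an inhibitor-only peak at its edge, at −19.9 kb, with a fold of 5.22 and rank 6876. This peak lay on an H3K4me2 interval outside the window and not on H3K4me1. Past the 3′ end of the gene, H3K4me1 had a fold of 7.23 over 2368 bp, with a 164 bp H3K4me2 interval on it and no LSD1.

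DNMT3B had the broadest LSD1 occupancy of the 6 gene starts. The DMSO peak, chr20:31348876-31351624, was 2749 bp wide, crossed the start and had a fold of 4.71 at rank 5712. It covered 68.7% of the 4 kb centred on the start, against 0 to 44.2% at the other 5 genes. The inhibitor peak, chr20:31348922-31350467, covered the upstream side and ended just inside the gene, 1546 bp wide with a fold of 3.83 at rank 19073. An H3K4me2 interval with a fold of 14.0 overlapped both peaks, the adjoining one with a fold of 12.8 overlapped the DMSO peak only, a short one at 1.93 kb (fold 5.08) overlapped neither, and H3K4me1 flanked the start with folds of 3.58 and 4.65.

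Inside DNMT3B, an LSD1 peak found with inhibitor only, at chr20:31366323-31366547 (16.3 to 16.5 kb), was the highest-ranked inhibitor peak of the set, with a fold of 5.29, a −log10 q of 7.78 and rank 3218. It had no H3K4me2 interval within 14151 bp and no H3K4me1 on it, and the nearest DMSO LSD1 peak was 14699 bp away. Near the 3′ end of the gene, at 45.1 to 46.7 kb, H3K4me1 had a fold of 8.06 and a width of 1549 bp, with a 205 bp H3K4me2 interval (fold 5.55) and no LSD1. Both flanks were marked, with H3K4me2 folds of 10.5 upstream and 10.9 downstream and H3K4me1 folds up to 9.35 and 6.17. LSD1 stood in both flanks in both lists, with folds of 3.18 to 3.85 with DMSO and 3.21 to 4.34 with inhibitor. RefSeq on GRCh38 lists COMMD7 and MAPRE1 as the neighbours within 20 kb, so flank intervals are given by position and not assigned to DNMT3B.

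TET1 was the gene at which the 2 LSD1 lists had no peak in common. It had only 2 DMSO peaks, and in the whole DMSO list 63.2% of peaks were overlapped with inhibitor. With DMSO, LSD1 had 2 weak peaks, at 39.0 kb (fold 3.31, percentile 20.2) and 47.7 kb (fold 3.26, percentile 6.34), and none near the start. With inhibitor it had 3, at 0.01 to 0.68 kb (fold 3.88, percentile 28.8), at 2.48 to 2.91 kb (fold 4.63, percentile 63.4) and at 40 to 40.4 kb (fold 4.63, percentile 73.4). The closest pair, around 39 to 40 kb, was separated by 819 bp. The DMSO peak of this pair lay on both marks and the inhibitor peak on H3K4me2 alone. The inhibitor peak at the start lay on neither mark, 161 bp from H3K4me2, and the nearest DMSO peak of the whole list was 32296 bp from it.

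H3K4me2 at TET1 fell at 2 places. At the start, intervals with folds of 7.38 and 11.7 covered 0.84 to 3.49 kb, and no H3K4me1 was listed there. A 201 bp interval lay at −0.18 to −0.38 kb (fold 4.03), on a side of the start that is not resolved. The inner place, chr10:70358851-70360639 at 38.9 to 40.6 kb, had a higher fold of 15.4 at rank 8664, and H3K4me1 lay on it with folds of 6.91 and 4.99. The inner TET1 starts of the RefSeq table on GRCh38 lie 39.9 and 40.1 kb downstream of the outer one. Beyond 48.3 kb the remaining TET1 span and the downstream flank held no interval of any list.

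TET2 had the most histone intervals, 18 of H3K4me2 and 20 of H3K4me1, with median widths of 309.5 and 390.5 bp, beside 411 and 416 bp in the whole lists. Short intervals were not particular to TET2. The H3K4me2 median was 305 bp at DNMT3A, and the H3K4me1 median was 311 bp at UHRF1 and 313 bp at TET1. For each mark, the medians at the remaining genes were larger than at TET2. The highest H3K4me2 fold was 9.52, at chr4:106066709-106067770 across the start, and the highest percentile was 75.2, the lowest maximum of the 6 genes. Within 2 kb of the start, H3K4me2 came in 7 intervals and H3K4me1 in 5, with folds of 5.15 to 9.52 and 3.67 to 7.51. The other 5 genes had 2 or 3 H3K4me2 intervals there. A second cluster lay at 12.5 to 19.0 kb, with H3K4me2 folds up to 7.69 and H3K4me1 folds up to 7.51.

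LSD1 in the window of TET2, as in that of DNMT3B, was found with inhibitor at every DMSO peak, beside 63.2% of the whole DMSO list. At DNMT3B, 1 of the 4 DMSO peaks lay in the gene span, 2 in the upstream flank and 1 in the downstream flank. At TET2, all 4 DMSO peaks were overlapped with inhibitor. They lay at −1.96 to −2.56 kb (fold 4.43 with DMSO and 4.91 with inhibitor), at 0.26 to 1.98 kb (3.68, against 3.98 and 4.0 in 2 inhibitor peaks), at 13.3 to 13.8 kb (4.19 and 4.64) and near the 3′ end at 130.5 to 131.1 kb (4.46 and 5.07). By place in their lists, all 4 stood lower with inhibitor. In the same order, the percentiles were 79.1 with DMSO and 76.4 with inhibitor, 43.2 against 31.3 and 33.0, 73.4 and 71.9, and 77.7 and 74.1. The median fold of the whole list was also higher with inhibitor, 3.91 against 3.61. The inhibitor list had 1 more peak, at 23.0 kb with a fold of 3.88 and no mark. At the 3′ end, the DMSO peak overlapped an H3K4me1 interval (fold 3.76), and the inhibitor peak overlapped that interval and one of H3K4me2 (fold 5.53), which began 9 bp from the DMSO peak.

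**Figure D2:**
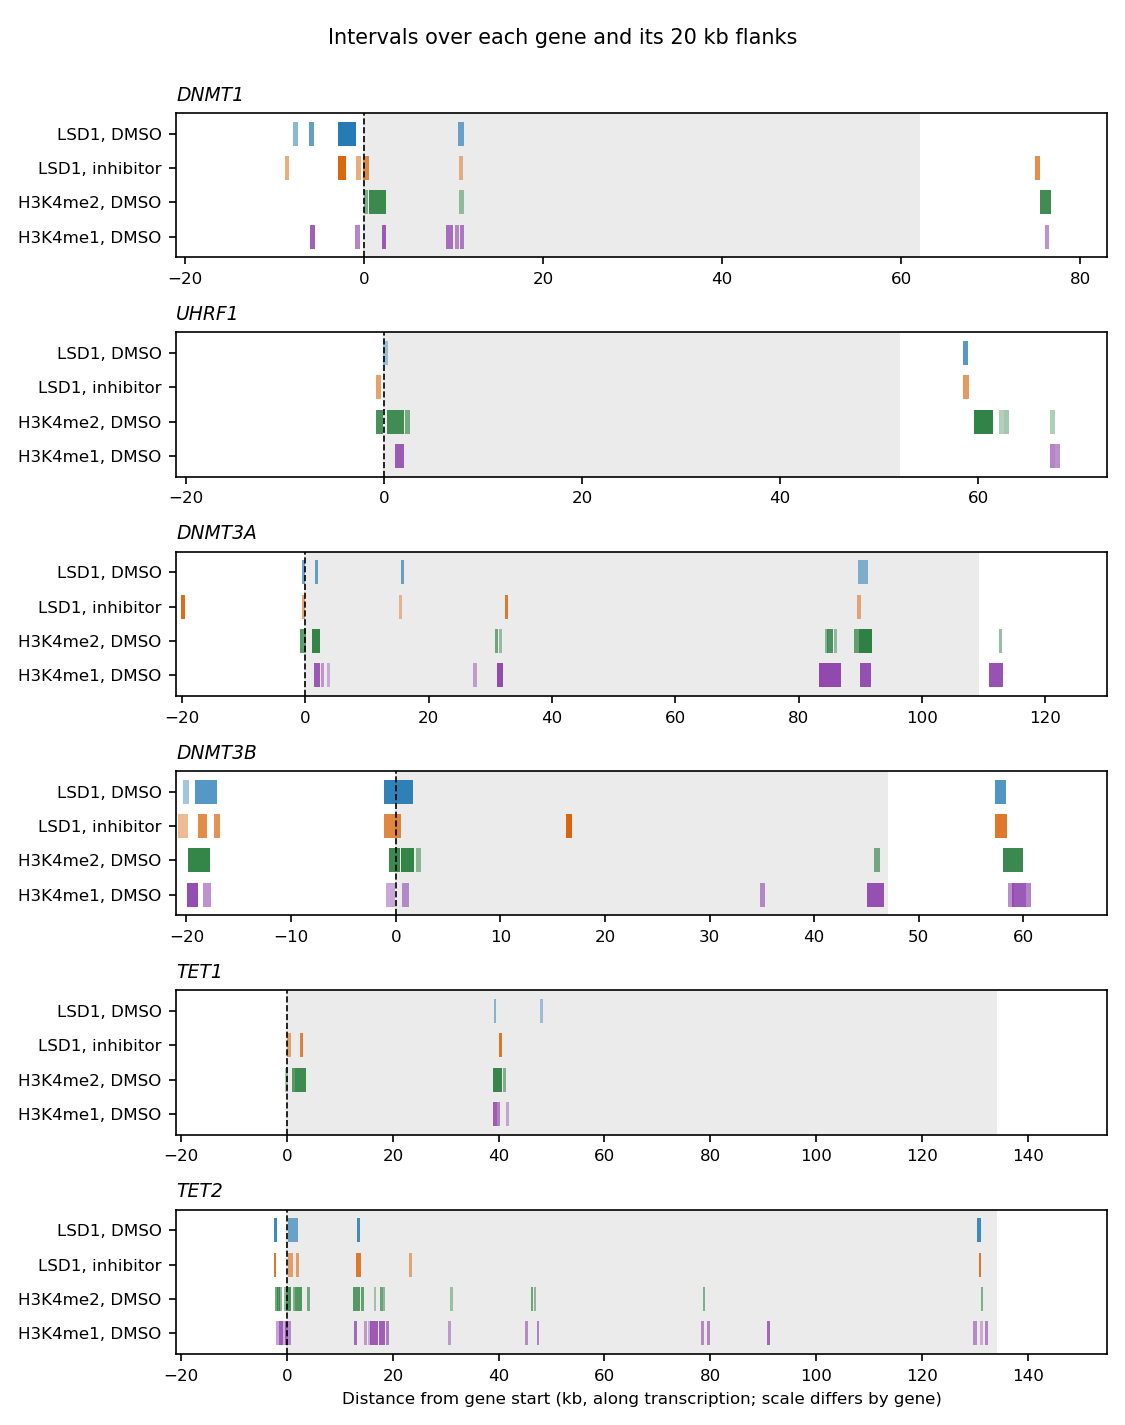
Intervals of the 4 lists over each gene span (grey) and its 20 kb flanks, by distance from the gene start in kb; intervals under 0.5 kb are drawn 0.5 kb wide, and darker bars have a higher score percentile. Intervals gather at the starts, at inner sites near 90 kb in DNMT3A and 40 kb in TET1, and in the flanks of UHRF1 and DNMT3B.

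The 6 windows together spanned 778 kb, and in them H3K4me2 had 6.56 intervals per 100 kb (95% Poisson interval 4.88 to 8.62) against 2.64 over the genome, and H3K4me1 6.43 (4.77 to 8.47) against 3.06. LSD1 had 2.57 peaks per 100 kb with DMSO (1.57 to 3.97) against 1.46, and 3.6 with inhibitor (2.39 to 5.20) against 1.60. The genome length was the sum of the largest peak ends and includes regions without genes. Of single genes, H3K4me2 ran from 2.87 per 100 kb at TET1 to 10.3 at TET2, and H3K4me1 from 1.72 at TET1 to 11.5 at TET2. LSD1 with DMSO ran from 1.15 per 100 kb at TET1 to 4.6 at DNMT3B, on 2 and 4 peaks, but the highest density was at DNMT3A in the gene spans alone (3 peaks) and at DNMT1 with flanks of 50 kb (13 peaks). The intervals quoted cover counting error only, and neighbouring intervals are not independent.

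By rank within their lists, the members were ordinary. The median score percentile of LSD1 peaks was 47.8 with DMSO and 51.6 with inhibitor, and that of H3K4me2 and H3K4me1 intervals was 47.7 and 44.0. In the highest decile of their list stood 1 of 20 DMSO LSD1 peaks (DNMT1), 2 of 28 inhibitor peaks (DNMT1 and DNMT3B), 5 of 51 H3K4me2 intervals (2 in DNMT3A, 1 at the DNMT3B start, 1 in the flank of DNMT3B and 1 in that of UHRF1) and 3 of 50 H3K4me1 intervals (2 in DNMT3A and 1 in the flank of DNMT3B). The median percentile of H3K4me2 was highest at DNMT3B (87.8, followed by 64.2 at TET1, 59.1 at DNMT1 and 56.6 at DNMT3A), and that of H3K4me1 was highest at DNMT3A (84.8, followed by 52.3 at DNMT1). The local background that a histone interval's fold and p-value imply, as a multiple of the list median, had gene medians of 0.570 to 1.24 for H3K4me2 and 0.695 to 1.87 for H3K4me1. DNMT3B was highest in both, and the part of this background in its ranks was not tested.

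**Figure D3:**
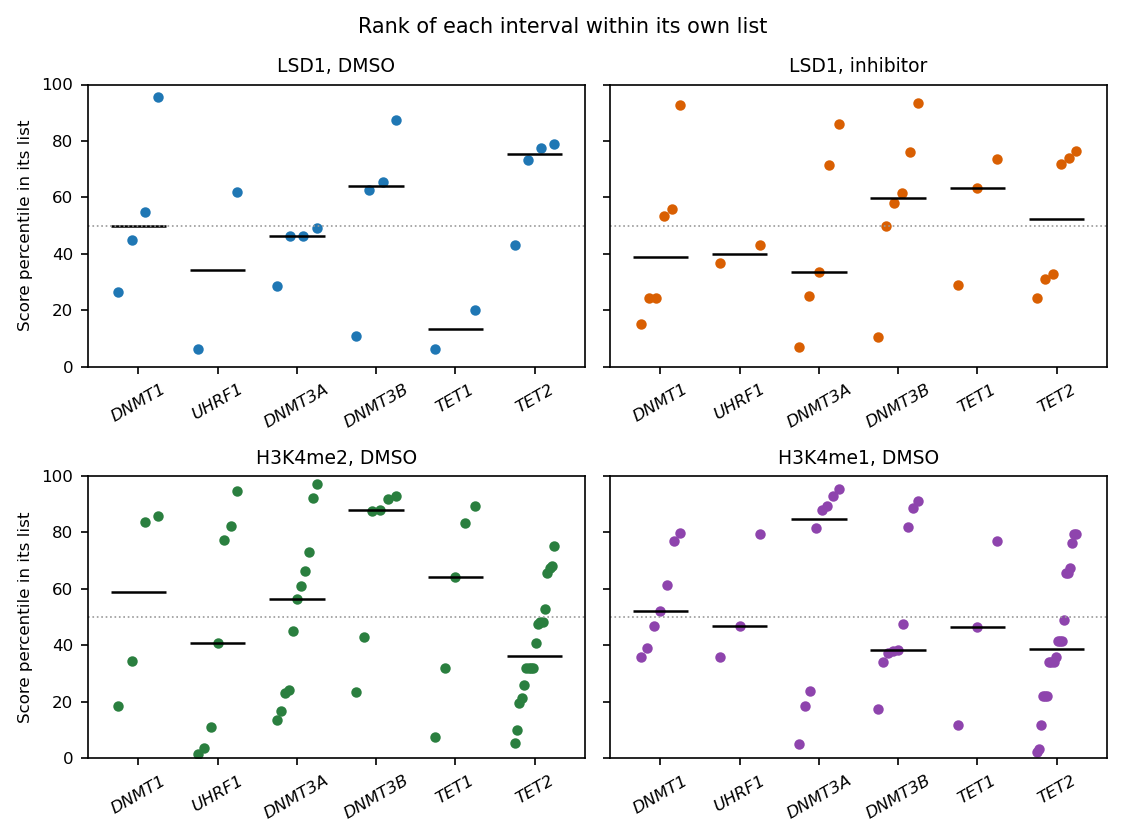
Score percentile of each interval within its own list, by gene, with a black line at the median of each gene and a dotted line at percentile 50; each point is 1 interval. H3K4me2 at DNMT3B and H3K4me1 at DNMT3A lie mostly high, and LSD1 with DMSO at TET1 lies low.

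The comparison of LSD1 with and without inhibitor asked how much of its distribution at these genes was found in both libraries. An inhibitor peak overlapped 14 of the 20 DMSO peaks (70.0%, Wilson interval 48.1 to 85.5%), beside 63.2% of the whole list. In the other direction, 16 of the 28 inhibitor peaks had a DMSO peak on them (57.1%, 39.1 to 73.5%), beside 58.1%. By gene, with the flanks included, the DMSO peaks found with inhibitor were 4 of 4 at DNMT3B, 4 of 4 at TET2, 3 of 4 at DNMT3A, 2 of 4 at DNMT1, 1 of 2 at UHRF1 and 0 of 2 at TET1. The 6 DMSO-only peaks had a median percentile of 23.4, against 62.4 for the 14 shared ones. The 12 inhibitor-only peaks did not stand lower, with a median percentile of 54.6 against 46.6 for the 16 shared ones. These medians were not taken over the whole lists, so whether either contrast is particular to these genes was not tested. The highest-scoring DMSO-only peak was the one at −5.96 kb of DNMT1 (fold 3.91, percentile 54.7).

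In the 14 shared peaks, the fold was higher with inhibitor in 11 (78.6%, 52.4 to 92.4%), beside 66.1% of the 28538 such pairs in the whole lists, which lies inside that interval. The score percentile was higher with inhibitor in only 1 of 14 (7.14%, 1.27 to 31.5%), the peak in the downstream flank of DNMT3B, beside 49.3% of all pairs, which lies outside that interval. The median fold of the whole inhibitor list was 3.91, against 3.61 with DMSO. With flanks of 50 kb the percentile was higher with inhibitor in 8 of 23 pairs (34.8%), and in the gene spans alone in 0 of 7. That count thus depended on the choice of window. The inhibitor peak was the narrower one in 8 of 14 (57.1%), beside 53.4%. These counts were made after the values were seen.

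LSD1 with DMSO lay on H3K4me2 at 13 of 20 peaks (65.0%, 43.3 to 81.9%), beside 50.4% of the list, and on H3K4me1 at 12 (60.0%, 38.7 to 78.1%), beside 41.5%. With inhibitor, 17 of 28 (60.7%, 42.4 to 76.4%) lay on H3K4me2, beside 52.9%, and 8 (28.6%, 15.3 to 47.1%) on H3K4me1, beside 39.5%. Neither mark was found at 4 DMSO peaks (20%, 8.07 to 41.6%; 35.3% with flanks of 50 kb), beside 39.8%, and at 10 inhibitor peaks (35.7%, 20.7 to 54.2%), beside 37.6%. H3K4me2 without H3K4me1 was found at 4 DMSO peaks (20%) and 10 inhibitor peaks (35.7%), beside 18.7% and 22.9%. For each of the 20 overlap shares computed, the value of the whole list fell inside the Wilson interval of the members. With so few members these intervals are wide. The shares thus neither set these genes apart nor show that they are like the whole list.

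**Figure D4:**
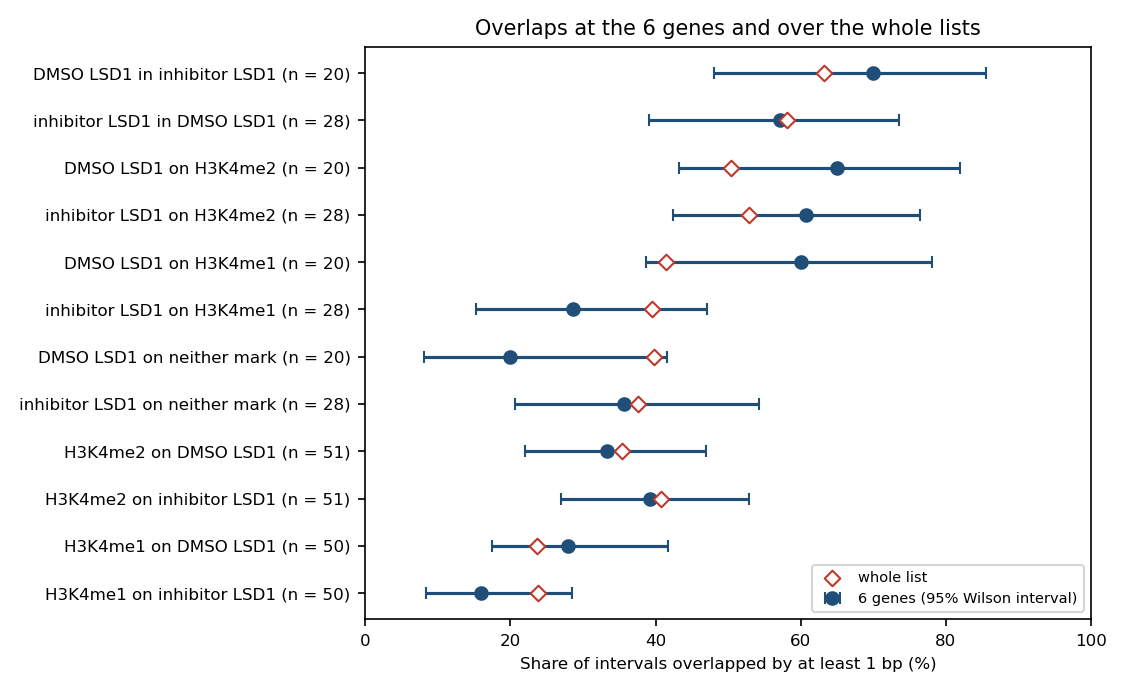
Share of intervals overlapped by at least 1 bp, at the 6 genes (circles with 95% Wilson intervals, which cover counting error only) and in the whole list (diamonds), with the number of intervals in brackets. Every diamond lies inside the interval of its circle.

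Seen from the marks, 17 of the 51 H3K4me2 intervals (33.3%) were overlapped by LSD1 with DMSO and 20 (39.2%) with inhibitor, beside 35.4% and 40.8% of the list. Of these, 15 were overlapped in both lists, 2 with DMSO only, beside 8.95% of the list, and 5 with inhibitor only, beside 14.3%. Of the 50 H3K4me1 intervals, LSD1 overlapped 14 (28%) with DMSO and 8 (16%) with inhibitor, beside 23.7% and 23.8%. All 8 were also overlapped with DMSO, so 6 were found with DMSO only, beside 7.74% of the list, and 0 with inhibitor only, beside 7.85%. The 6 were 2 at DNMT1 and 1 each at DNMT3A, DNMT3B, TET1 and TET2. The marks overlapped each other at 29 of 51 H3K4me2 intervals (56.9%, beside 63.1%) and 29 of 50 H3K4me1 intervals (58.0%, beside 47.4%), and H3K4me1 was found on 1 of 5 H3K4me2 intervals at TET1 and 2 of 7 at UHRF1.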

How the data were processed

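LSD1, H3K4me2 and H3K4me1 ChIP-seq peaks of NCI-H526 cells were used, 1 library per group, with groups from the sample descriptions. The submitters' processing notes name BWA, Picard, MACS2 2.0 and hg19. For the caller's control, duplicates and depth nothing is stated in the sources used here. The deposited files have no header. The layout is that of MACS2 broad peaks for LSD1 (9 columns) and of narrow peaks for the marks (10 columns), so interval widths differ in kind. Per row, the deposited score is 10 times the deposited −log10 q, and the authors also give a −log10 p and a fold enrichment, a ratio over the caller's background. LSD1 lists reach down to a −log10 q of 1.00 and 1.01, histone lists to 2.02 and 2.01.

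Histone rows (178083 and 175135) were reduced to distinct intervals with the values of the highest summit. Members overlap a gene span of the rule, widened by 20 kb. Overlap means at least 1 bp. Intervals are 95% Wilson or exact Poisson intervals for counting error only, and no test was run. The implied background is the Poisson mean at which an interval's fold (pseudocount 1) has its p-value. The overlap search and this measure were tested on simulated data. The members and lists were chosen with earlier results of these data known. For each gene, the rule for what to name was every interval within 2 kb of its start, the highest-scoring interval of each list and the strongest peak found in 1 LSD1 list only. Other intervals that are named were chosen after their values were seen. Promoters came from RefSeq (GRCh38.p14), where 6 of 6 genes matched by symbol, and RefSeq genes on GRCh38.p14 gave strand and neighbours. No coordinates were converted. Further genes of the pathway were not analysed here. Alternatives were the top 50% of scores, flanks of 0 and 50 kb, each gene left out, a reciprocal overlap of 50%, centres or summits, a −log10 q of 2 or more for LSD1, and distances of 1 and 5 kb from the start. Python 3.11.15, pandas 2.3.3, scipy 1.17.1 and matplotlib 3.10.9 were used.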

Additional observations from a re-analysis of the deposited data

How the results depend on the processing

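Densities and overlap shares (15 values) stayed within their counting intervals with flanks of 0 kb, with flanks of 50 kb and without each gene in turn, though DMSO LSD1 on neither mark rose from 20% to 35.3% with flanks of 50 kb. Gene-start counts were unchanged at 5 kb. No paired analysis was possible because the labels give 1 replicate for each antibody and treatment. Since depth is unknown, a site with no listed peak may hold signal below the caller's threshold. For the 50% of intervals with the highest scores, densities fell by construction, to 1.16 per 100 kb for LSD1 with DMSO, 1.80 with inhibitor, 2.96 for H3K4me2 and 2.57 for H3K4me1. DMSO LSD1 was then on H3K4me1 in 22.2% and on neither mark in 44.4% of cases, inhibitor LSD1 on H3K4me1 in 0%, and H3K4me2 on DMSO LSD1 in 21.7%; starts with LSD1 were 3 of 6 with DMSO and 2 of 6 with inhibitor. Within 1 kb, starts with H3K4me1 were 3 of 6.

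A reciprocal overlap of 50% is stricter by construction and lowered the shares of overlap, so those on neither mark rose. An inhibitor peak then overlapped 35% of DMSO LSD1 peaks, and a DMSO peak 25% of inhibitor peaks. DMSO LSD1 was on H3K4me2 in 15.0%, on H3K4me1 in 15.0% and on neither in 75%, and inhibitor LSD1 in 14.3%, 3.57% and 85.7%. H3K4me2 was on H3K4me1 in 17.6%, on DMSO LSD1 in 5.88% and on inhibitor LSD1 in 7.84%. Counted by centres or summits, DMSO LSD1 was on H3K4me1 in 25% and on neither in 50%, inhibitor LSD1 on H3K4me2 in 35.7%, on H3K4me1 in 7.14% and on neither in 60.7%, and H3K4me2 on LSD1 in 19.6% with DMSO and 19.6% with inhibitor. With LSD1 peaks of a −log10 q of 2 or more, LSD1 with DMSO had 1.16 peaks per 100 kb, DMSO in inhibitor LSD1 was 88.9% and H3K4me2 on DMSO LSD1 11.8%. Apart from fewer or smaller overlaps by construction, the cause was not tested.

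The share of shared LSD1 peaks standing higher with inhibitor, with its alternatives, was picked with the values in view. The counts were 0 of 7 in the gene spans, 8 of 23 with flanks of 50 kb, 1 of 7 for the 50% of peaks with the highest scores and 0 of 10 without DNMT3B. Among 25 further values, the counts of intervals by gene and list and this share, 10 moved with flanks of 50 kb and 12 in the gene spans alone.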
